A study of Mus musculus with 24 samples.

Results

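The mouse Slc25 family, the carriers that move metabolites across the inner mitochondrial membrane, was followed through oocyte maturation and fertilization in females with and without the deadenylation factors Cnot6l and Btg4. Its members were taken as every gene whose symbol starts with Slc25a, which gave 44 of the 23235 genes listed. FPKM are in general fragment counts corrected for transcript length and library size, though how these libraries were put on one scale is not stated. A gene was tested if its mean reached 1 FPKM in at least 1 of the 12 groups. Of the 44 members, 30 passed this filter and 14 did not.

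Carriers of this family fold into a bundle of membrane helices built from repeated units and work by alternating between the matrix side and the cytosolic side of the membrane. Each carries a particular cargo, such as ADP and ATP, phosphate, citrate, amino acids, iron or a cofactor. Oocytes depend on oxidative phosphorylation in their many mitochondria, and they stop transcribing before meiosis resumes, so that transcript levels from that point on are set largely by how fast stored mRNA is removed. Cnot6l is one of the deadenylases that CCR4-NOT uses to trim poly(A) tails, and Btg4 is an adaptor known to bring that complex to maternal mRNA in maturing oocytes. Whether the FPKM below also vary with the length of poly(A) tails was not tested.

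All animals were C57BL/6 mice of postnatal day 21. The groups were oocytes or zygotes from Cnot6l-/- females, from females labelled Btg4-/-, and from wild-type (WT) females, each at the germinal vesicle stage (GV, 48 h after PMSG), metaphase I (MI, 8 h of culture), metaphase II (MII, 16 h of culture) and the zygote stage (24 h after hCG). Each of the 12 groups had 2 libraries, made by Smart-Seq2 and cut with the Tn5 transposase. The labels differ on input, with 100 oocytes per library in the extraction protocol and 2 in the series description. Fewer oocytes and less RNA per oocyte cannot be told apart in such pools, nor do the labels say that the libraries of a group came from separate animals, so a p-value here reflects library-to-library spread, which may be technical.

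The summed FPKM of all genes ranged from 49930 in a WT zygote library to 545784 in a GV library labelled Btg4-/-, so a level is not a part of a constant sum. All 12 oocyte markers reached 1 FPKM, with sums of 1015 to 12388 FPKM per library. The 12 cumulus and granulosa markers summed to 1.58 to 28.5 FPKM and were highest in the GV groups. The 10 sperm and testis markers were highest at GV, with sums of 80.5 to 105.84 FPKM in Cnot6l-/-, 80.4 to 85.4 in libraries labelled Btg4-/- and 50.8 to 53.4 in WT. At MII they summed to 25.5 to 26.3 FPKM in Cnot6l-/-, 11.7 to 14.8 in eggs labelled Btg4-/-, and 5.96 to 8.44 in WT. In zygotes the sums were 3.92 to 9.89, 8.24 to 10.12 and 6.39 to 6.47 FPKM in the same order. Tnp1 was listed at 0 in all libraries. The 7 blood and immune markers summed to at most 2.79 FPKM, with both haemoglobin genes at 0 throughout. The part these other cells may have in the values below was not tested. The mRNA of Cnot6l averaged 5.33 FPKM in Cnot6l-/- MII eggs and 22.2 in WT, and it was called lower at GV, MI and MII but not in zygotes. The mRNA of Btg4 averaged 1302 FPKM in MII eggs labelled Btg4-/- and 1035 in WT, with no call at any stage, so this mRNA does not check that label.

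In WT GV oocytes the family was led by 4 genes, which together held 64.8% of its summed FPKM. Slc25a5, ADP/ATP translocase 2, had 258 and 199 FPKM in the WT GV libraries. Slc25a17, a carrier of coenzyme A and related cofactors in the peroxisomal membrane, had 123 and 103 FPKM. Slc25a31, the germ-cell ADP/ATP translocase 4, had 128 and 67.4 FPKM, and Slc25a4, the translocase 1 of heart and muscle, had 87.5 and 94.0. Slc25a5 lay above the other members in both libraries, whereas the values of Slc25a31 spanned those of Slc25a17 and Slc25a4, so its place in the order is not resolved.

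The next members were Slc25a3, the phosphate carrier, at 41.7 FPKM on average, Slc25a14 at 33.3, Slc25a15, the ornithine carrier, at 31.8, and Slc25a26, the S-adenosylmethionine carrier, at 30.7. Slc25a48, a gene linked to choline import, averaged 19.1 FPKM. The 10 highest members made up 86.9% of the family's summed FPKM in WT GV oocytes. From Slc25a3 to Slc25a26 each member overlapped the next between libraries, so neighbours in that order are not resolved. At the other end, Slc25a34 was listed at 0 in all 24 libraries, and the highest single value among the 14 untested members was 0.59 FPKM, for Slc25a29.

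**Figure D1:**
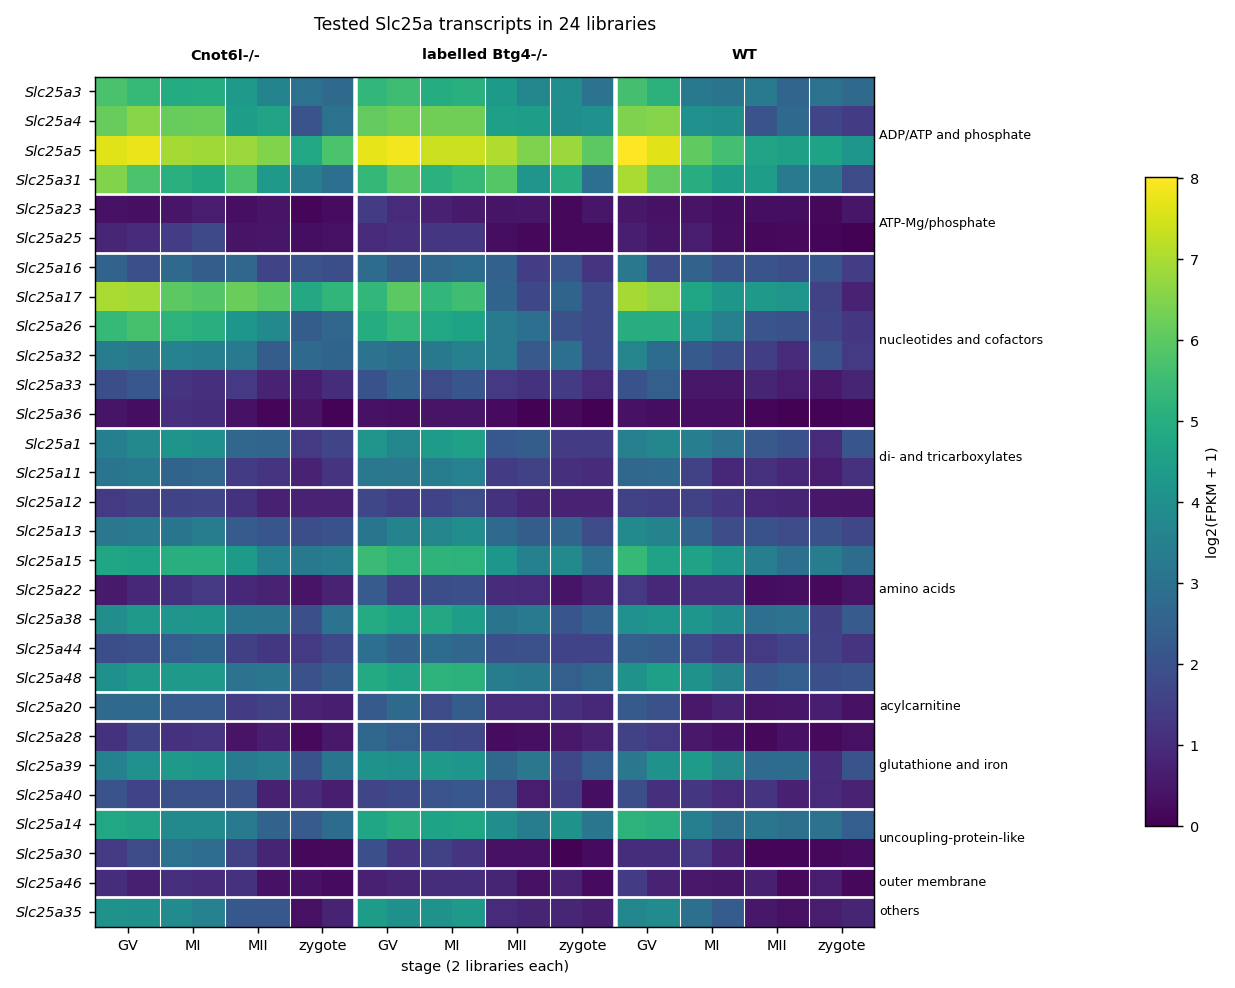
Level of 29 tested Slc25a members (down the page, grouped by cargo) in each of the 24 libraries (across), as log2(FPKM + 1). Each cell is 1 library. The ADP/ATP translocases and Slc25a17 are brightest (highest) at GV, and in WT most members are dark (low) by MII, whereas in the Cnot6l-/- libraries and in those labelled Btg4-/- several, Slc25a4 among them, stay brighter at MI and MII.

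In WT, the family fell with the rest of the maternal mRNA. Differences below are of log2(FPKM + 1), tested with limma and Benjamini-Hochberg adjustment over the 10884 genes tested, with an adjusted p under 0.05 as the call. At MI relative to GV, 16 of the 30 members were called lower and 0 higher, where 65.1% of all genes tested were called lower and 0.753% higher. At MII relative to GV, 26 members were called lower and 0 higher, beside 83.4% and 0.0551% of all genes. The members' median change at MII was -1.59 and that of all genes -1.37. The summed FPKM of the family at MI, MII and the zygote stage was 31.8%, 15.05% and 9.33% of its WT GV sum.

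These counts depend on the scale. After each library was scaled by a median of ratios, the median of all genes for WT MII minus GV moved to -0.37, and of the 27 members then tested, 8 were lower and 3 higher at MII, beside 43.2% and 14.9% of all genes. The share of the family in the summed FPKM of all genes lay between 0.107% and 0.197% in all 24 libraries. On average it was 0.164% in WT GV oocytes and 0.125% in WT MII eggs. At MII it averaged 0.179% in Cnot6l-/- and 0.166% in libraries labelled Btg4-/-. These shares were not tested.

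Slc25a4, Slc25a35 and Slc25a5 were among the 4 members with the largest falls in WT MII eggs. Slc25a4 had 3.27 and 5.67 FPKM at MII, against 87.5 and 94.0 at GV, a log2 change of -4.10 ± 0.29 (SE, adjusted p = 1.3e-09). Slc25a35, a member whose cargo is not established, had 0.43 and 0.27 FPKM at MII, against 11.9 and 13.5 at GV, a log2 change of -3.34 ± 0.24. For both genes the libraries of the stages lay far apart.

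Slc25a5 fell by 3.21 ± 0.35 on the log2 scale, with 24.7 and 22.7 FPKM at MII and 258 and 199 at GV, and it then had 24.3 and 17.4 FPKM in WT zygotes. The changes nearest 0 on this scale were those of members of low level, where the pseudocount of 1 understates a change. Slc25a23, an ATP-Mg/phosphate carrier, had -0.16 at MII and was not called. Slc25a36, a pyrimidine nucleotide carrier, had 0.07 and 0.03 FPKM at MII, against 0.32 and 0.24 at GV, a change of -0.29 that was called but lost in each of the 4 fits that left out a library. Slc25a25, also of the ATP-Mg/phosphate group, had 0.12 and 0.14 FPKM at MII, against 0.59 and 0.38 at GV, and so 26.8% of its GV mean. Its change of -0.39 was called, lost without library 1 of either stage, and 0.01 after scaling. Slc25a16 and Slc25a40 had changes of -0.53 each, with no call, which turned to 1.0 and 0.57 after scaling.

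Not every member moved early. Slc25a39, a glutathione carrier, had 20.3 and 12.6 FPKM in WT MI oocytes, against 8.07 and 15.9 at GV, and its change of 0.46 was not called, though after scaling it was 1.58 and called higher. Slc25a38, a glycine carrier, had 17.7 and 13.8 FPKM at MI, against 15.5 and 17.7 at GV, a change of -0.08 that turned to 1.09 after scaling. At MII, Slc25a38 had 6.68 and 7.30 FPKM and Slc25a39 5.99 and 6.12. Both thus had their lower levels at MII and not at MI, while Slc25a4 already had 15.6 and 15.01 FPKM at MI.

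Between MII and the zygote stage, 1 member was called lower in WT and 0 higher, beside 3.22% and 1.04% of all genes tested. That member was Slc25a17, with 1.92 and 0.71 FPKM in WT zygotes, against 18.9 and 17.2 in WT MII eggs. Its log2 change was -3.09 ± 0.36 (SE, adjusted p = 0.00012), and -3.06 after scaling. The call was lost when the fit held only these groups. The labels give hours of culture for MII eggs and hours after hCG for zygotes. This step therefore cannot be told apart from a difference in culture.

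In GV oocytes, before maturation, few or none of the members were called between genotypes. In Cnot6l-/- GV oocytes 0 of the 30 members were called higher or lower than in WT by limma, beside 6.06% and 3.02% of all genes, and 4 members had an unadjusted p under 0.05. In GV oocytes labelled Btg4-/-, 3 members were called higher than in WT and 0 lower, beside 6.10% and 1.33% of all genes. They were Slc25a28, Slc25a22 and Slc25a23, all of low level, and Slc25a23 passed the filter only through this group, so its call is no support. After scaling 0 members were called higher there and 1, Slc25a17, lower, beside 1.03% and 0.743% of all genes. With a pseudocount of 0.1 or only these groups fitted 0 were called. Slc25a17 had 38.9 and 62.8 FPKM there, against 123 and 103 in WT. In that group 11 members had both libraries above both of WT and 4 below, beside 31.7% and 10.3% of all genes. In Cnot6l-/- the numbers were 6 and 5, beside 20.9% and 15.7%.

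From MI on, members were called higher than in WT in both mutants, fewer of them at each later stage. In Cnot6l-/- oocytes, 18 of 30 members were called higher than in WT at MI, 11 at MII and 3 in zygotes, with 0 lower at each stage. The 18 include Slc25a36 and Slc25a25, which passed the filter only through mutant groups, so their calls are no support. The shares of all genes called higher were 60.3%, 44.3% and 8.00%, and those called lower 1.30%, 0.671% and 0.413%. In the group labelled Btg4-/-, 20 members were called higher than in WT at MI, 8 at MII and 3 in zygotes, beside 68.7%, 28.3% and 21.5% of all genes. Slc25a25 is also among these 20. Among the members, 1 was called lower at MII in that group and 0 at MI or in zygotes, beside 0.340%, 0.432% and 0.0459% of all genes. Both comparisons use the same WT libraries, so their likeness is no separate evidence.

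The members followed the background in this, as their median change in Cnot6l-/- against WT at MI was 0.87, and that of all genes also 0.87. At MII it was 0.53 in Cnot6l-/- eggs, beside 0.56 for all genes. The median change in libraries labelled Btg4-/- was 1.08 at MI and 0.48 at MII, beside 0.99 and 0.38. After scaling, 5 members were higher and 0 lower in Cnot6l-/- at MI (35.8% and 11.01% of all genes), and 9 higher and 3 lower at MII (34.3% and 8.69%). Scaling left 7 members higher and 1 lower at MI in libraries labelled Btg4-/- (32.5% and 9.82% of all genes), and 4 higher and 1 lower at MII (21.8% and 6.55%). Scaling moved the all-gene medians at MI to 0.28 in Cnot6l-/- and 0.22 in libraries labelled Btg4-/-.

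The summed FPKM of the 44 members was also above WT in both mutants from MI on. In Cnot6l-/- it was 0.944 times the WT mean at GV, 2.12 times at MI, 2.78 times at MII and 1.94 times in zygotes, where the sum over all genes had ratios of 0.969, 1.89, 1.92 and 1.73. The family's ratios to WT in libraries labelled Btg4-/- were 0.889, 2.51, 2.28 and 2.59, and those of all genes 0.972, 2.37, 1.70 and 2.32. At MII, 22 members in Cnot6l-/- eggs and 19 in eggs labelled Btg4-/- had both libraries above both WT libraries, beside 71.9% and 61.5% of all genes.

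The ADP/ATP translocases exchange the ATP made in the matrix for cytosolic ADP, and the phosphate carrier Slc25a3 supplies the phosphate that ATP synthase needs. Slc25a4 (chromosome 8, 47292698 to 47296363 on mm9) had 21.3 and 24.4 FPKM in Cnot6l-/- MII eggs and 21.9 and 21.1 in those labelled Btg4-/-, against 3.27 and 5.67 in WT. Every library of both mutants lay above both WT libraries, and the mutants overlapped each other. The log2 change against WT was 2.16 ± 0.29 in Cnot6l-/- (SE, adjusted p = 1.5e-05) and 2.08 ± 0.29 in libraries labelled Btg4-/- (adjusted p = 5.1e-05).

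Slc25a4 was already apart at MI, with 69.5 and 73.3 FPKM in Cnot6l-/- and 76.1 and 76.7 in libraries labelled Btg4-/-, against 15.6 and 15.01 in WT. In GV oocytes it had 69.7 and 95.2 FPKM in Cnot6l-/- and 67.3 and 75.2 in libraries labelled Btg4-/-, against 87.5 and 94.0 in WT. Its level at MI was thus 86.6% of the group's own GV mean in Cnot6l-/- and 107% in libraries labelled Btg4-/-, against 16.9% in WT. In zygotes it had 3.16 and 7.01 FPKM in Cnot6l-/- and 14.9 and 15.5 in libraries labelled Btg4-/-, against 2.17 and 1.65 in WT.

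The zygote changes of Slc25a4 against WT were 0.99 ± 0.29 in Cnot6l-/- and 2.48 ± 0.29 in libraries labelled Btg4-/- (limma, adjusted p = 0.043 and 1.7e-05). The Cnot6l-/- call was lost without WT library 1 (1.12), WT library 2 (0.86) or Cnot6l-/- library 2 (0.52), and after scaling (0.57). The fall from GV to MII was itself smaller in both mutants than in WT. The difference of the MII minus GV changes was 2.31 ± 0.41 for Cnot6l-/- and 2.42 ± 0.41 for the group labelled Btg4-/- (adjusted p = 0.00061 and 0.00087), and both held without any 1 library.

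Slc25a5 (chromosome X, 34335647 to 34338801) followed the same pattern at a higher level. It had 111 and 88.4 FPKM in Cnot6l-/- MII eggs and 131 and 86.6 in those labelled Btg4-/-, against 24.7 and 22.7 in WT. The changes were 2.02 ± 0.35 and 2.13 ± 0.35 (limma, adjusted p = 0.00016 and 0.0002), and the mutant libraries all lay above those of WT. At MI it had 121 and 116 FPKM in Cnot6l-/- and 165 and 164 in libraries labelled Btg4-/-, against 65.3 and 48.5 in WT. The Cnot6l-/- call at MI (1.06 ± 0.35) was lost without WT library 3 (0.85) or Cnot6l-/- library 2 (1.03), and after scaling (0.13).

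In zygotes Slc25a5 had 27.1 and 53.2 FPKM in Cnot6l-/- and 110.45 and 62.1 in libraries labelled Btg4-/-, against 24.3 and 17.4 in WT. The change against WT was called in libraries labelled Btg4-/- (1.96 ± 0.35, adjusted p = 0.00059) and not in Cnot6l-/- (0.86 ± 0.35). For its fall from GV to MII the difference from WT was 2.15 ± 0.49 in Cnot6l-/- and 2.16 ± 0.49 in libraries labelled Btg4-/- (adjusted p = 0.0039 and 0.0066).

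Slc25a31 had 52.8 and 18.8 FPKM in Cnot6l-/- MII eggs and 59.2 and 17.1 in those labelled Btg4-/-, against 21.6 and 8.90 in WT. The groups overlapped, and in 8 of the 9 groups outside MI the library numbered 1 was the higher. Compared within library numbers, both mutants lay above WT. Number 1 had 52.8 and 59.2 against 21.6 FPKM, and number 2 had 18.8 and 17.1 against 8.90. The labels do not tie equal numbers together, and the fit did not pair them. The changes of Slc25a31, 1.12 ± 0.69 and 1.14 ± 0.69, were not called. Their 95% intervals, -0.34 to 2.59 and -0.32 to 2.61, include changes as large as those of Slc25a4. The 3 translocase genes are related in sequence, and processed pseudogenes lie elsewhere in the genome. Whether reads were shared among such copies was not tested, so the individual levels of these genes are uncertain.

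Slc25a3 had 18.7 and 11.4 FPKM in Cnot6l-/- MII eggs and 19.5 and 11.7 in those labelled Btg4-/-, against 9.04 and 5.06 in WT. The groups did not overlap, and the changes of 1.0 ± 0.34 and 1.05 ± 0.34 were called (limma, adjusted p = 0.025 and 0.028). Both calls were lost without WT library 2 (0.64 in Cnot6l-/-, 0.69 in libraries labelled Btg4-/-) or without library 1 of the mutant (0.66 in Cnot6l-/-, 0.71 in libraries labelled Btg4-/-). Library 1 was the higher in 8 of the 9 groups outside MI for Slc25a3. At MI it had 29.6 and 29.8 FPKM in Cnot6l-/- and 30.2 and 32.9 in libraries labelled Btg4-/-, against 8.35 and 7.54 in WT, changes of 1.78 and 1.86 that held without any 1 library.

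**Figure D2:**
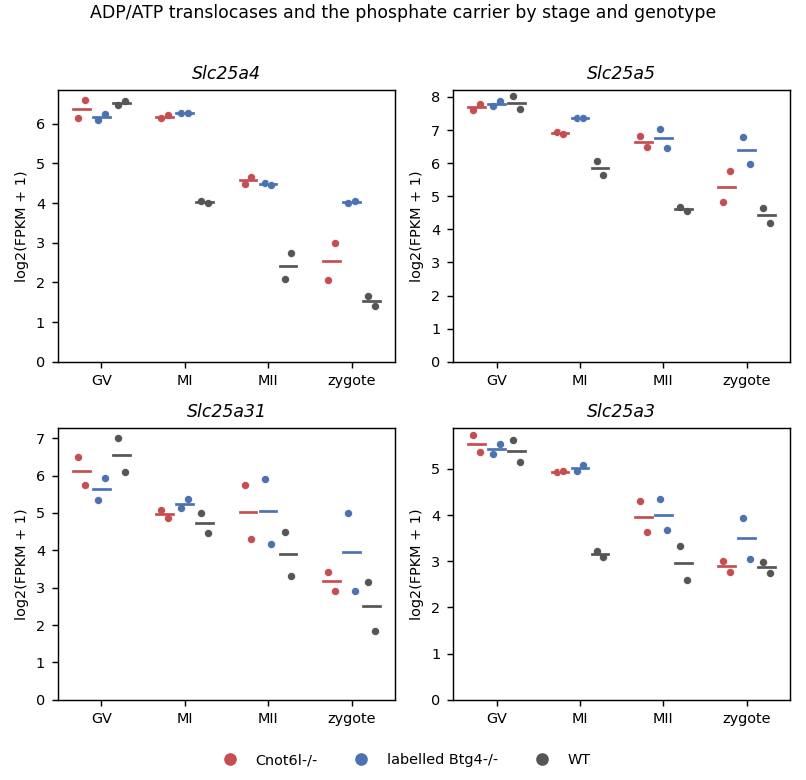
Level of the ADP/ATP translocases Slc25a4, Slc25a5 and Slc25a31 and of the phosphate carrier Slc25a3 by stage, as log2(FPKM + 1), with each point a library and each bar the mean of 2. At MII the Cnot6l-/- libraries of Slc25a4 (21.3 and 24.4) and those labelled Btg4-/- (21.9 and 21.1) stand above WT (3.27 and 5.67), whereas the Slc25a31 libraries of the groups overlap.

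The translocases took a larger share of the family than in WT in MII eggs of both mutants and in zygotes labelled Btg4-/-. Slc25a4, Slc25a5 and Slc25a31 together held 47.1% and 45.1% of the family's summed FPKM in Cnot6l-/- MII eggs and 62.1% and 56.6% in those labelled Btg4-/-, against 36.5% and 33.7% in WT. In zygotes their share was 32.9% and 38.3% in Cnot6l-/- and 62.6% and 57.8% in libraries labelled Btg4-/-, against 40.2% and 32.2% in WT. In GV libraries of every genotype the share was between 45.5% and 52.7%. At MI the groups lay closer together than at MII, with 39.9% and 40.1% in Cnot6l-/- and 42.8% and 42.4% in libraries labelled Btg4-/-, against 37.1% and 38.6% in WT. The shares were not tested, and Cnot6l-/- zygotes overlapped WT.

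**Figure D3:**
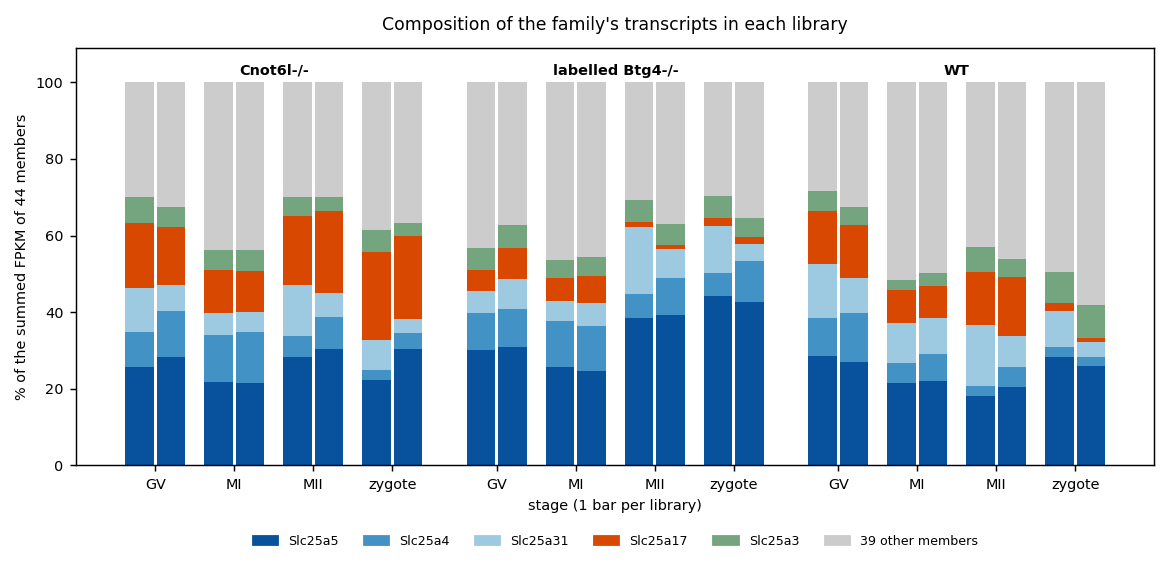
Percent of the summed FPKM of all 44 Slc25a members held by Slc25a5, Slc25a4, Slc25a31, Slc25a17, Slc25a3 and the remaining members, with 1 bar for each library. Slc25a17 takes 18.1% and 21.2% in Cnot6l-/- MII eggs but 1.46% and 1.04% in those labelled Btg4-/-.

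Slc25a17 was the member called higher than in WT in one mutant and lower in the other at MII. Its 3' UTR in the mm9 annotation carries a cytoplasmic polyadenylation element, TTTTAT, 84 bases from its end, a motif known to recruit CPEB to mRNAs whose poly(A) tails are regulated during maturation. Of the 24 tested members with an annotated 3' UTR of at least 100 bases, 4 held that motif or TTTTAAT in the last 100 bases, Slc25a5 among them. These were 16.7% of the members, beside 20.7% of 8476 tested genes. Whether the motif bears on the calls of Slc25a17 was not tested. The search was for the sequence alone, and in Slc25a16 and Slc25a44 it lies 3' of an ATTAAA, 5 and 9 bases from the transcript's end. The sites are printed 5' to 3' on the strand of the gene, read from mm9, with the motif in capitals. They lie at chr15:81149421-81149450 (minus strand) for Slc25a17, chrX:34338733-34338762 (plus) for Slc25a5, chr10:62409217-62409246 (plus) for Slc25a16 and chr3:88214420-88214449 (minus) for Slc25a44.
Slc25a17: tttcgaattgTTTTATattacaaaaaaaag
Slc25a5: ctcaattatattTTTTATttcagtcactcc
Slc25a16: tatgatattaaaagtaattTTTTATccttg
Slc25a44: aatgtaattaaaagtTTTTATtgagcccct

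Slc25a17 (chromosome 15, 81149351 to 81191195) had 70.9 and 62.0 FPKM in Cnot6l-/- MII eggs but 4.97 and 2.30 in those labelled Btg4-/-, against 18.9 and 17.2 in WT. No library of one genotype overlapped those of another. The changes against WT were 1.82 ± 0.36 in Cnot6l-/- (limma, adjusted p = 0.00054) and -2.10 ± 0.36 in libraries labelled Btg4-/- (adjusted p = 0.00028), where it was the 1 member called lower. The difference between the mutants themselves was 3.92 ± 0.36 (adjusted p = 2.1e-06), and 3.88 after scaling.

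In zygotes Slc25a17 had 27.8 and 37.6 FPKM in Cnot6l-/- and 4.97 and 2.41 in libraries labelled Btg4-/-, against 1.92 and 0.71 in WT. The Cnot6l-/- mean was 24.9 times that of WT, a log2 change of 3.90 ± 0.36 (adjusted p = 4e-06), and it was 3.75 after scaling. In the group labelled Btg4-/- the change of 1.01 ± 0.36 was not called (adjusted p = 0.052). Slc25a17 thus stayed at 26.5% of its own GV mean in Cnot6l-/- zygotes, against 1.16% in WT.

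At GV, Slc25a17 had 127 and 119.6 FPKM in Cnot6l-/- and 38.9 and 62.8 in libraries labelled Btg4-/-, against 123 and 103 in WT. The change in libraries labelled Btg4-/- was -1.17 ± 0.36 and was not called (limma, adjusted p = 0.056), though both its libraries lay below both of WT, and it was called after scaling (-1.19) and without library 2 of that group (-1.51). At MI it had 62.5 and 57.1 FPKM in Cnot6l-/- and 38.4 and 46.2 in libraries labelled Btg4-/-, against 25.95 and 17.9 in WT.

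At MI the changes of Slc25a17 against WT were 1.43 ± 0.36 in Cnot6l-/- and 0.93 ± 0.36 in libraries labelled Btg4-/- (adjusted p = 0.0023 and 0.029). The second was lost without WT library 3 (0.68) or without library 2 or 3 of the group labelled Btg4-/- (1.06 and 0.81), and turned to -0.25 after scaling. For the MII minus GV change the difference from WT was 1.69 ± 0.51 in Cnot6l-/- (adjusted p = 0.021) and -0.93 ± 0.51 in libraries labelled Btg4-/- (not called). The Cnot6l-/- difference lost its call in 5 of 8 fits that each left out a library, with values from 1.57 to 1.81.

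**Figure D4:**
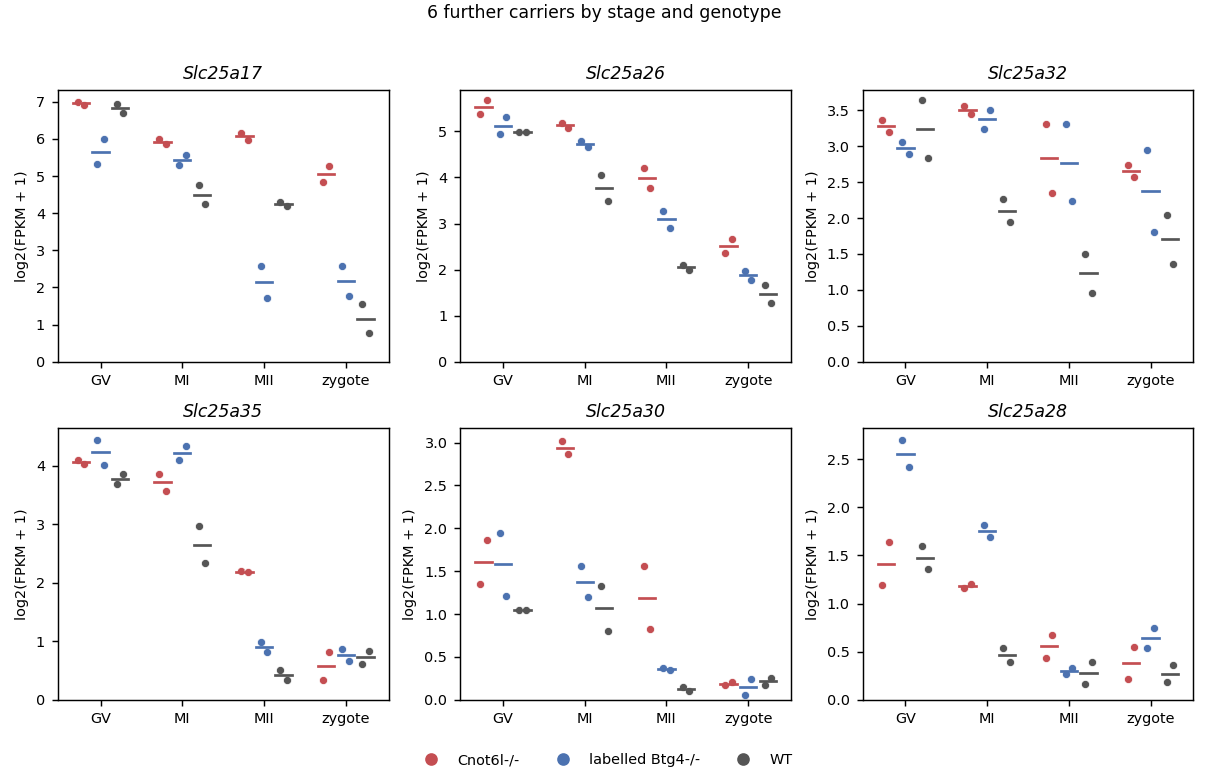
Level of Slc25a17, Slc25a26, Slc25a32, Slc25a35, Slc25a30 and Slc25a28 by stage, as log2(FPKM + 1), with each point a library and each bar the mean of 2. For Slc25a17 the Cnot6l-/- libraries lie at 70.9 and 62.0 FPKM at MII and 27.8 and 37.6 FPKM in zygotes, above WT at both stages, while those labelled Btg4-/- lie at 4.97 and 2.30 FPKM at MII, below WT.

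Of the 7 tested carriers of nucleotides and cofactors, Slc25a17 included, 6 were called higher than in WT at MI and 4 at MII in Cnot6l-/-, and 5 at MI and 3 at MII in libraries labelled Btg4-/-. The 6 include Slc25a36, which passed the filter only through Cnot6l-/- MI, so its call is no support. The shares of all genes called higher were 60.3% and 44.3% in Cnot6l-/- and 68.7% and 28.3% in libraries labelled Btg4-/-. After scaling, 0 were called higher at MI and 4 at MII in Cnot6l-/-, and 1 at MI and 2 at MII in libraries labelled Btg4-/-.

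Slc25a26 (chromosome 6, 94450308 to 94554646) imports the methyl donor S-adenosylmethionine. It had 17.5 and 12.7 FPKM in Cnot6l-/- MII eggs and 8.69 and 6.53 in those labelled Btg4-/-, against 3.28 and 3.0 in WT. The 3 groups did not overlap, with Cnot6l-/- highest and WT lowest. The changes were 1.94 ± 0.26 and 1.05 ± 0.26 (limma, adjusted p = 1.2e-05 and 0.0052), and the second was lost without library 1 of the group labelled Btg4-/- (0.86).

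The mutants differed from each other in Slc25a26 at MII by 0.90 ± 0.26 (adjusted p = 0.027), a call lost without Cnot6l-/- library 1 (0.69) or library 2 of the group labelled Btg4-/- (0.72). In zygotes it had 4.13 and 5.32 FPKM in Cnot6l-/- and 2.93 and 2.43 in libraries labelled Btg4-/-, against 2.16 and 1.42 in WT. The Cnot6l-/- change of 1.04 ± 0.26 was called, and lost without WT library 2 (0.85) or Cnot6l-/- library 2 (0.89). Its fall from GV to MII differed from WT by 1.41 ± 0.36 in Cnot6l-/-, not called without Cnot6l-/- MII library 1 (1.19). The gene overlaps Lrig1 on the opposite strand by 124 bases, and without strand information reads there cannot be told apart.

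Slc25a32, a folate or FAD carrier, had 8.93 and 4.11 FPKM in Cnot6l-/- MII eggs and 8.86 and 3.70 in those labelled Btg4-/-, against 1.82 and 0.95 in WT. The changes of 1.60 ± 0.42 and 1.54 ± 0.42 were called, but lost without WT library 2 (1.34 in Cnot6l-/-, 1.27 in libraries labelled Btg4-/-) or library 1 of the mutant (1.12 in Cnot6l-/-, 1.0 in libraries labelled Btg4-/-). Library 1 was the higher in all 9 groups outside MI for this gene.

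The pyrimidine nucleotide carriers Slc25a33 and Slc25a36 differed at MI. Slc25a33 had 1.29 and 1.13 FPKM in Cnot6l-/- and 2.60 and 3.46 in libraries labelled Btg4-/-, against 0.42 and 0.43 in WT. Slc25a36 had 1.13 and 1.08 FPKM in Cnot6l-/- and 0.34 and 0.37 in libraries labelled Btg4-/-, against 0.25 and 0.25 in WT. Slc25a33 was thus highest in libraries labelled Btg4-/- and Slc25a36 in Cnot6l-/-, with no overlap among the groups.

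Slc25a36 passed the filter only through the Cnot6l-/- MI group, where it was high, so its changes there, 0.75 ± 0.13 (SE) against WT and 0.64 ± 0.13 against the group labelled Btg4-/-, are a description, and its calls at MI are no support. Slc25a33 was lower in Cnot6l-/- than in libraries labelled Btg4-/- by a log2 change of -0.86 ± 0.24, a call lost in each of the 4 fits that left out a library (-1.01 to -0.70). Slc25a33 made up 52.2% of the pair's summed FPKM at MI in Cnot6l-/- and 89.4% in libraries labelled Btg4-/-, against 63.0% in WT.

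Slc25a35 (chromosome 11, 68781633 to 68786017) had 3.60 and 3.51 FPKM in Cnot6l-/- MII eggs and 0.97 and 0.76 in those labelled Btg4-/-, against 0.43 and 0.27 in WT. Both mutants lay above WT without overlap, and Cnot6l-/- above the group labelled Btg4-/-. The change was 1.76 ± 0.24 in Cnot6l-/- (limma, adjusted p = 1.5e-05), while 0.47 ± 0.24 in libraries labelled Btg4-/- was not called. The mutants differed by 1.29 ± 0.24 (adjusted p = 0.0014), and the fall from GV differed from WT by 1.47 ± 0.33 in Cnot6l-/- (adjusted p = 0.0039).

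At MI Slc25a35 had 13.5 and 10.8 FPKM in Cnot6l-/- and 16.1 and 19.1 in libraries labelled Btg4-/-, against 6.78 and 4.05 in WT. The changes of 1.06 and 1.56 were called and held without any 1 library, but 0 were called after scaling. The Cnot6l-/- difference was thus found at MI and MII but not in zygotes. There Slc25a35 had 0.27 and 0.75 FPKM in Cnot6l-/- and 0.82 and 0.59 in libraries labelled Btg4-/-, against 0.53 and 0.78 in WT. All groups overlapped, and every value was below 1 FPKM, where the pseudocount of 1 understates a change. Slc25a35 overlaps Rangrf on the opposite strand by 29 bases.

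Of the uncoupling-protein-like carriers, Slc25a30 was called higher in Cnot6l-/- than in WT at MI and MII, while Slc25a14 was not. At MI, Slc25a30 (chromosome 14, 76161806 to 76186844) had 7.11 and 6.27 FPKM in Cnot6l-/- and 1.95 and 1.29 in libraries labelled Btg4-/-, against 1.5 and 0.75 in WT. The Cnot6l-/- libraries stood above all others, by a change against WT of 1.88 ± 0.26 (limma, adjusted p = 8e-06) and against the group labelled Btg4-/- of 1.56 ± 0.26 (adjusted p = 0.00056). Its MI mean was 320% of its own GV mean in Cnot6l-/- and 77.7% in libraries labelled Btg4-/-, against 106% in WT.

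At MII Slc25a30 had 1.95 and 0.77 FPKM in Cnot6l-/- and 0.29 and 0.27 in libraries labelled Btg4-/-, against 0.11 and 0.07 in WT. The Cnot6l-/- change was 1.07 ± 0.26, not called without Cnot6l-/- library 1 (0.70), and the difference between the mutants was 0.84 ± 0.26, not called in 3 of 4 fits that left out a library (0.47 to 0.85 in those 3). Slc25a14 had 13.2 and 12.99 FPKM in Cnot6l-/- MI oocytes and 24.2 and 25.3 in those labelled Btg4-/-, against 9.91 and 6.85 in WT, with a call for the group labelled Btg4-/- (1.47 ± 0.34). At MII it had 8.97 and 4.89 FPKM in Cnot6l-/- and 14.6 and 9.52 in libraries labelled Btg4-/-, against 7.89 and 6.71 in WT. The Cnot6l-/- change there was -0.11 ± 0.34, and after scaling it was -0.88 and called lower.

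Both tested carriers of dicarboxylates and tricarboxylates were called higher than in WT at MI in both mutants, and neither at MII. The shares of all genes called higher at MI were 60.3% in Cnot6l-/- and 68.7% in libraries labelled Btg4-/-. After scaling, 0 of the pair were called at MI in Cnot6l-/- and 1, Slc25a11, in libraries labelled Btg4-/-. Slc25a11, the oxoglutarate carrier of the malate-aspartate shuttle, had 4.93 and 5.20 FPKM in Cnot6l-/- and 9.41 and 10.7 in libraries labelled Btg4-/-, against 1.91 and 0.87 in WT. The groups did not overlap, and the changes were 1.38 ± 0.23 and 2.24 ± 0.23 (limma, adjusted p = 6.7e-05 and 3.1e-07). The difference between the mutants, -0.86 ± 0.23, lost its call in each of the 4 fits that left out a library (-0.94 to -0.78). At MII, Slc25a11 had 1.71 and 1.32 FPKM in Cnot6l-/- and 1.68 and 1.97 in libraries labelled Btg4-/-, against 1.20 and 0.86 in WT, with no call.

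Slc25a1, the citrate carrier, had 16.8 and 15.2 FPKM in Cnot6l-/- MI oocytes and 20.3 and 23.2 in those labelled Btg4-/-, against 9.71 and 7.28 in WT. The MI changes were 0.85 ± 0.30 and 1.27 ± 0.30 (limma, adjusted p = 0.02 and 0.0013). The first was lost without WT library 3 (0.67) or Cnot6l-/- library 2 or 3 (0.78 and 0.92), with a pseudocount of 0.1 (0.92), and after scaling (-0.018), and the second after scaling (0.13). At MII it had 5.32 and 5.18 FPKM in Cnot6l-/- and 3.66 and 4.12 in libraries labelled Btg4-/-, against 3.73 and 3.03 in WT. Slc25a20, which carries acylcarnitines into the matrix for fatty acid oxidation, had 1.60 and 1.94 FPKM in Cnot6l-/- MII eggs and 0.98 and 0.94 in those labelled Btg4-/-, against 0.33 and 0.40 in WT. Its changes were 1.02 ± 0.20 in Cnot6l-/- (called, adjusted p = 0.00057) and 0.52 ± 0.20 in libraries labelled Btg4-/- (not called), with no overlap among the 3 groups. The mutants differed there by 0.50, not called. At MI both were called higher than in WT, by 1.66 in Cnot6l-/- and 1.44 in libraries labelled Btg4-/-. At GV the changes were 0.64 and 0.39 in the same order, and its fall to MII differed from WT by 0.37 and 0.14, with no call.

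The 7 tested members grouped as amino acid carriers include Slc25a48, which is linked to choline import. Of the 7, 2 were called higher than in WT at MI and 1 at MII in Cnot6l-/-, and 4 at MI and 2 at MII in libraries labelled Btg4-/-. Beside these stood 60.3% and 44.3% of all genes in Cnot6l-/- and 68.7% and 28.3% in libraries labelled Btg4-/-. After scaling, 0 were higher in Cnot6l-/- at either stage and 2 were lower at MII, and in libraries labelled Btg4-/- 1 was higher and 1 lower at MI and 0 were called at MII. The MII call in Cnot6l-/- and 1 of the 2 in libraries labelled Btg4-/- were those of Slc25a48. It had 7.31 and 7.93 FPKM in Cnot6l-/- MII eggs and 9.26 and 8.46 in those labelled Btg4-/-, against 3.51 and 4.25 in WT. The changes were 0.82 ± 0.24 and 1.02 ± 0.24 (limma, adjusted p = 0.0093 and 0.0036), and the first was lost without WT library 1 (0.71). At MI Slc25a48 had 18.8 and 19.2 FPKM in Cnot6l-/- and 35.4 and 34.9 in libraries labelled Btg4-/-, against 15.9 and 11.1 in WT. The mutants differed by -0.85 ± 0.24 at MI, a call lost in each of the 4 fits that left out a library (-0.87 to -0.84). Its fall to MII differed from WT by 0.96 ± 0.34 in Cnot6l-/-, a call lost in 6 of 8 such fits.

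The aspartate/glutamate carriers Slc25a12 (Aralar) and Slc25a13 (citrin) had unlike levels. Slc25a13 had 7.62 and 9.54 FPKM in Cnot6l-/- MI oocytes and 11.6 and 14.3 in those labelled Btg4-/-, against 4.48 and 2.7 in WT, without overlap. Its changes were 1.08 in Cnot6l-/-, not called without WT library 3 (0.80), and 1.62 in libraries labelled Btg4-/-, which held without any 1 library. Slc25a12 had 2.12 and 2.2 FPKM at MI in Cnot6l-/- and 2.08 and 2.62 in libraries labelled Btg4-/-, against 2.02 and 1.39 in WT, with no call.

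Slc25a22, a glutamate carrier, had 0.49 and 0.88 FPKM in Cnot6l-/- GV oocytes and 3.90 and 1.84 in those labelled Btg4-/-, against 1.54 and 0.91 in WT. At MII it had 0.88 and 0.71 FPKM in Cnot6l-/- and 1.01 and 0.97 in libraries labelled Btg4-/-, against 0.20 and 0.26 in WT. The changes in libraries labelled Btg4-/- were 0.76 ± 0.22 at GV and 0.69 ± 0.22 at MII (limma, adjusted p = 0.042 and 0.023). The GV call was lost without WT library 2 (0.55) or library 1 of that group (0.37), and the MII call in each of the 4 fits that left out a library (0.66 to 0.73). For Cnot6l-/- the difference of its fall to MII from that in WT was 0.94 ± 0.31, with the call lost in 5 of 8 such fits (0.73 to 1.15 over all 8).

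Of the 3 tested glutathione and iron carriers, 0 were called at GV and 1 at MI in Cnot6l-/-, and 1 at GV and 2 at MI in libraries labelled Btg4-/-, all higher than in WT. The shares of all genes called higher were 6.06% and 60.3% in Cnot6l-/- and 6.10% and 68.7% in libraries labelled Btg4-/-. At MII and in zygotes 0 were called in either mutant. Slc25a28, a mitoferrin that imports iron for haem and iron-sulfur clusters, had 1.28 and 2.12 FPKM in Cnot6l-/- GV oocytes and 5.48 and 4.33 in those labelled Btg4-/-, against 2.02 and 1.56 in WT. The group labelled Btg4-/- stood above the others, by a change of 1.08 ± 0.18 against WT (limma, adjusted p = 0.0014), not called after scaling (0.84). At MI it averaged 1.26 FPKM in Cnot6l-/- and 2.37 in libraries labelled Btg4-/-, against 0.38 in WT, changes of 0.72 ± 0.18 and 1.29 ± 0.18 that held without any 1 library. Scaling ended the first call (0.30) but not the second (0.62). At MII it had 0.35 and 0.60 FPKM in Cnot6l-/- and 0.20 and 0.26 in libraries labelled Btg4-/-, against 0.12 and 0.31 in WT. Its fall to MII was thus larger in libraries labelled Btg4-/- than in WT, by -1.06 ± 0.25 (adjusted p = 0.0094), a call lost without WT MII library 2 (-0.94), with a pseudocount of 0.1 (-1.28, adjusted p = 0.16) and with only the compared groups fitted (adjusted p = 0.067).

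Slc25a37, the other mitoferrin, never exceeded 0.14 FPKM. Slc25a39 had 8.69 and 10.2 FPKM in Cnot6l-/- MII eggs and 5.59 and 8.03 in those labelled Btg4-/-, against 5.99 and 6.12 in WT, and was not called in any comparison between genotypes. In every group Slc25a39 held from 52.02% to 94.7% of the summed FPKM of the pair Slc25a39 and Slc25a40, taken library by library.

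Among the ATP-Mg/phosphate carriers, which shift the matrix adenine nucleotide pool, Slc25a23 had 0.32 and 0.26 FPKM in Cnot6l-/- GV oocytes and 1.70 and 0.95 in those labelled Btg4-/-, against 0.42 and 0.30 in WT. Slc25a23 passed the filter only through the GV group labelled Btg4-/-, so its change of 0.76 ± 0.15 (SE) there is a description, and it was 0.52 without library 1 of that group. Slc25a25 had 1.76 and 2.42 FPKM in Cnot6l-/- MI oocytes and 1.39 and 1.39 in those labelled Btg4-/-, against 0.52 and 0.25 in WT, and it was called in both mutants (1.16 and 0.79), though it passed the filter only through these mutant MI groups and the GV group labelled Btg4-/-. It shares 1014 bases with Naif1 on the opposite strand, whose own level never exceeded 0.74 FPKM. Slc25a24 and Slc25a41 were below the filter.

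**Figure D5:**
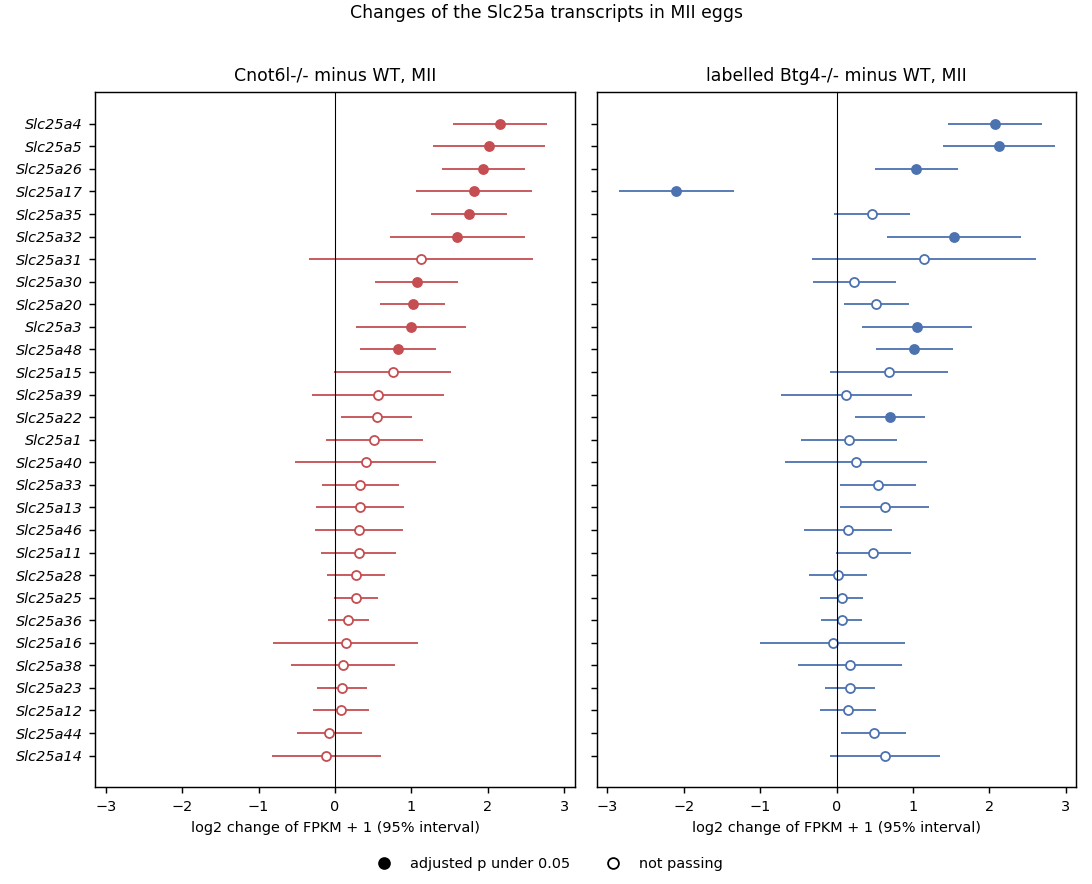
Change in log2(FPKM + 1) against WT at MII for 29 tested members, with Cnot6l-/- minus WT beside the group labelled Btg4-/- minus WT. Points are the fitted changes, lines their 95% intervals, and filled points have an adjusted p under 0.05. Slc25a17 stands at 1.82 in Cnot6l-/- and at -2.10 in libraries labelled Btg4-/-, the single filled point below 0.

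The mutants were also set directly against each other. At MI, 2 of 30 members were called higher in Cnot6l-/- than in libraries labelled Btg4-/- (Slc25a30 and Slc25a36, the second of which passed the filter only through Cnot6l-/- MI) and 3 lower (Slc25a11, Slc25a33 and Slc25a48), beside 3.59% and 6.46% of all genes. At MII, 4 members were called higher (Slc25a17, Slc25a35, Slc25a26 and Slc25a30) and 0 lower, beside 11.02% and 1.77% of all genes. In the change from GV to MII against that in WT, 8 members had a positive difference in Cnot6l-/- and 0 a negative one, beside 24.1% and 0.717% of all genes. There were 3 members with a positive and 1 with a negative difference in libraries labelled Btg4-/-, beside 13.3% and 0.579%. Within Cnot6l-/-, 19 members were called lower at MII than at GV, and within libraries labelled Btg4-/- 24, where 59.9% and 75.3% of all genes were. None was called higher in either, beside 0.0459% and 0.0368%.

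Scaling kept 9 of the 11 Cnot6l-/- calls at MII, losing Slc25a3 (0.25) and Slc25a48 (0.13), and it brought 3 members lower there (Slc25a14, Slc25a44 and Slc25a12). In the group labelled Btg4-/- it kept Slc25a4, Slc25a5 and Slc25a32 among those higher and Slc25a17 lower at MII, and lost Slc25a3 (0.40), Slc25a26 (0.47), Slc25a48 (0.42) and Slc25a22 (0.58). The MI calls that scaling ended include Slc25a17 (0.51), Slc25a11 (0.70) and Slc25a13 (0.29) in Cnot6l-/- and Slc25a14 (0.33) and Slc25a25 (0.25) in libraries labelled Btg4-/-. Scaling also ended the differences of the fall to MII in Cnot6l-/- for Slc25a17 (0.82), Slc25a26 (0.69), Slc25a48 (0.20) and Slc25a22 (0.60). Fits of the compared groups alone, which leave few degrees of freedom, called 0 members in zygotes of either mutant.

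Carrier proteins reach the inner membrane through the TOM complex, small TIM chaperones and the TIM22 translocase, and their cargo crosses the outer membrane through VDAC pores. All 15 tested genes of this import and pore list were called lower in WT MII eggs than in GV oocytes, with a median change of -4.17, where 83.4% of all genes were called lower with a median of -1.37. Against WT at MII, 10 were called higher and 0 lower in Cnot6l-/-, and 10 higher and 0 lower in libraries labelled Btg4-/-, beside 44.3% and 28.3% of all genes called higher. The median changes of the list were 1.65 and 1.52, and those of all genes 0.56 and 0.38. Timm9, a small TIM chaperone, averaged 126 FPKM in Cnot6l-/- MII eggs and 207 in those labelled Btg4-/-, against 3.31 in WT, and 350.3 in WT GV oocytes. Vdac3 changed by 3.49 in Cnot6l-/- at MII and Tomm22 by 3.5 in libraries labelled Btg4-/-, while Timm22 (0.29) and Tomm70a (0.36) were not called in Cnot6l-/-.

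Carriers outside the family or under other names gave 6 tested genes of 12. All 6 fell in WT from GV to MII, and 3 were called higher in Cnot6l-/- and 2 in libraries labelled Btg4-/- at MII, beside 83.4% of all genes lower in WT and 44.3% and 28.3% higher in the mutants. Brp44, a subunit of the mitochondrial pyruvate carrier, changed by 3.04 in Cnot6l-/- and 3.28 in libraries labelled Btg4-/- at MII. Of 14 tested enzymes that use carried substrates, 12 were called lower at MII than at GV in WT, and at MII 4 were higher and 1 lower in Cnot6l-/- and 6 higher and 0 lower in libraries labelled Btg4-/-, beside the same shares of all genes. The median change of the 14 against WT was 0.65 in Cnot6l-/- and 0.77 in libraries labelled Btg4-/-. The widest Cnot6l-/- changes were those of Mdh2 and Got1, enzymes of the malate-aspartate shuttle, which changed by 3.54 and 3.42 in Cnot6l-/-, and Nfs1, which supplies sulfur for iron-sulfur clusters, by -0.72.

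The members' 3' UTRs were set beside those of all tested genes, with no test. The 24 members with an annotated 3' UTR had a median length of 1105 bases, against 871 over 8476 tested genes. The motif TTTTAT or TTTTAAT, searched on the sense strand in the last 100 bases with overlapping matches counted once per gene, was present in 16.7% of these members and in 20.7% of genes. A hexamer AATAAA or ATTAAA lay in the last 50 bases in 79.2% of members and 81.1% of genes. The 4 members printed above with the motif changed in WT from GV to MII by between -3.21 (Slc25a5) and -0.53 (Slc25a16), though after scaling Slc25a16 and Slc25a44 turned to 1.0 and 0.50. Across the 24 members, which share libraries, Spearman's rho between 3' UTR length and that change was 0.49, a description of these genes only.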

How the data were processed

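The values are the authors' deposited FPKM, with 2 decimals, of 24 Smart-Seq2 libraries. Per the submitters' processing notes, CASAVA 1.8, TopHat2 2.0.11, Bowtie2 2.1.0, Cufflinks 2.2.1 and the mm9 build were used. The sources used here do not say how libraries were put on one scale. FPKM carry no read depth, so errors come from differences between libraries alone. MI columns are numbered 2 and 3 and MI titles 1 and 2, so these columns were assigned to groups only.

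The 10884 genes averaging 1 FPKM or more in any of the 12 groups were tested. limma 3.58.1 under R 4.3.3 (lmFit, then eBayes with a trend) modelled log2(FPKM + 1) by 12 group means, leaving 12 residual degrees of freedom. For each of 17 contrasts a two-sided moderated test was run, and p-values were adjusted over genes by Benjamini-Hochberg, with a threshold of 0.05. The code of the fit was also run on simulated data, which checks the code and is no support for the results here. Tried as well were a smaller pseudocount (0.1), testing without the filter, scaling libraries by a median of ratios over 3677 genes, fitting the compared groups alone, blocking on library number, and leaving out each library. A library left alone in its group takes the spread of the others.

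The members and gene lists were chosen with earlier results of these data known. The text names the 10 highest members in WT GV oocytes, members called in a genotype or interaction contrast (the 6 largest where over 12), the 4 largest and 4 smallest changes in WT MII minus GV, and paralogues. Slc25a1, Slc25a38 and Slc25a44 were named after their values were seen. The results of 1 member, counted among those tested, are not reported here. 3' UTRs came from a gene annotation of mm9, read with Python 3.11.15. Reads of the opposite strand or of pseudogenes may be counted for a gene. Library numbers were not taken as pairs, since the labels do not tie them to a shared animal or day and each comparison has 2.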

Additional observations from a re-analysis of the deposited data

Results flagged for a closer look

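Members whose fall from GV to MII differed from that in WT were marked by the test of the difference itself (limma, Benjamini-Hochberg adjustment), over 2 libraries a group. In Cnot6l-/- the differences were 2.31 for Slc25a4, 2.15 for Slc25a5, 1.69 for Slc25a17, 1.47 for Slc25a35, 1.41 for Slc25a26, 0.96 for Slc25a48 and 0.94 for Slc25a22, on the log2 scale. In the group labelled Btg4-/- they were 2.42 for Slc25a4, 2.16 for Slc25a5 and -1.06 for Slc25a28.

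Members that differed between Cnot6l-/- and the group labelled Btg4-/- were marked in the same way. At MI the differences were 1.56 for Slc25a30, 0.64 for Slc25a36, -0.86 for Slc25a11, -0.86 for Slc25a33 and -0.85 for Slc25a48. Slc25a36 passed the filter on low values only through Cnot6l-/- MI, so its difference is a description. At MII they were 3.92 for Slc25a17, 1.29 for Slc25a35, 0.90 for Slc25a26 and 0.84 for Slc25a30. Slc25a17 at MII was the member called higher than in WT in Cnot6l-/- eggs and lower in eggs labelled Btg4-/-.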

How the results depend on the processing

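Counts of called members, of 30 tested, moved with scaling, which left 27 tested, and with the groups fitted. After median-ratio scaling, 11 members were called in WT for MII minus GV and 3 for zygote minus MII, 4 within Cnot6l-/- and 8 within the group labelled Btg4-/- for MII minus GV. Against WT, scaling gave 5 calls for Cnot6l-/- at MI, 4 for its difference of the MII minus GV change, and 1, 8 and 5 for the group labelled Btg4-/- at GV, MI and MII. Between the mutants at MI it gave 3. Fits of only the groups compared gave 0 calls for WT zygote minus MII, for both mutants in zygotes, for the group labelled Btg4-/- at GV and for the mutants at MII, 2 for the MII minus GV change in the group labelled Btg4-/-, and 13 between the mutants at MI. A pseudocount of 0.1 gave 0 calls for the group labelled Btg4-/- at GV, 7 for it in zygotes, 1 between the mutants at MI and 4 for WT zygote minus MII.

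With the library number as a block, the count was 8 between the mutants at MI and 2 for WT zygote minus MII, and within 1.5 times the unblocked count elsewhere. Deviations of equally numbered libraries correlated at -0.31 to 0.71 over 36 pairs of groups outside MI, 28 of them over 0.1, and at -0.09 to 0.01 over the 3 pairs of MI groups. MI and GV could not be blocked together because their numbers differ.

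With each library left out, calls numbered 14 to 17 (WT MI minus GV), 24 to 26 (WT MII minus GV), 1 to 4 (WT zygote minus MII), 13 to 20 and 20 to 24 (MII minus GV within Cnot6l-/- and the group labelled Btg4-/-). For Cnot6l-/- against WT they numbered 0 to 0, 13 to 18, 8 to 12 and 1 to 6 from GV to zygote, and for the group labelled Btg4-/- 1 to 5, 16 to 19, 5 to 8 and 3 to 6. For the MII minus GV change they were 4 to 8 and 3 to 5, and between the mutants 2 to 2 at MI and 2 to 4 at MII.

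Among named members, signs turned after scaling for Slc25a38 in WT MI minus GV (1.09), for Slc25a25 (0.014), Slc25a16 (1.0), Slc25a40 (0.57) and Slc25a44 (0.50) in WT MII minus GV, for Slc25a17 at MI in the group labelled Btg4-/- (-0.25) and for Slc25a1 at MI in Cnot6l-/- (-0.018). Over the fits that left out a library, signs also turned for Slc25a38 in WT MI minus GV (-0.25 to 0.090, above 0 without WT GV library 2 or WT MI library 3), for Slc25a16 in WT MII minus GV (-1.19 to 0.13, above 0 without WT GV library 1) and for Slc25a14 in Cnot6l-/- at MII (-0.49 to 0.27, above 0 without its library 2). The causes were not tested. With 2 libraries a group and no read depth, small changes of members near 1 FPKM are not resolved.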
